A study of Arabidopsis thaliana and Lactuca sativa with 158 samples.

Results

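AT2TE02465 is a methylated transposable element locus on chromosome 2 of Arabidopsis thaliana, and the authors' target names tie 4 gene identifiers to it: AT2G02190, AT2G02200, AT2G02205 and AT2G02210. These 4 rows, chosen by identifier, are described here among the 86 targets of the series and the 67 targets of the inflorescence tables. RefSeq's gene table lists all 4 as consecutive pseudogenes on chromosome 2, after TOM3 and the non-coding RNA genes AT2G04205 and AT2G04215 and before the peptide receptor gene PSKR1. The deposited class of the members is that of methylated transposable elements, which holds 16 other targets in the inflorescence tables.

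Transposable elements in plants are held silent by DNA methylation and compact chromatin. DDM1 is a chromatin remodeller that lets the maintenance methyltransferases reach DNA in heterochromatin, and its loss lets many elements be transcribed. RNA polymerase V is a plant polymerase whose non-coding transcripts serve as scaffolds for the RNA-directed DNA methylation pathway, RNA polymerase IV feeds the same pathway with precursors of small RNAs, and Dicer-like (DCL) enzymes cut double-stranded RNA into small RNAs. A messenger made by RNA polymerase II normally carries a poly(A) tail, so strand, tail and completeness of the reads describe what kind of RNA a silenced element gives.

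Total RNA was turned into cDNA, captured with probes for chosen targets and sequenced as long nanopore reads, so that each read could be assigned a strand, a mark for poly(A) (pA) and a mark for full length. The series holds 158 libraries, 122 from Arabidopsis and 36 from lettuce, and the lettuce libraries are not used here. Inflorescences (immature flower buds of stages 1 to 12) were sampled in 3 replicates each of ddm1, polv and wild-type Col-0 and in 1 library labelled poliv / polv, all in the Columbia-0 ecotype and all labelled as carrying 35S::RUBY, a pigment reporter under a viral promoter. The 112 leaf libraries came from plants 4 weeks old that carried RUBY under 35S or under the maize ubiquitin promoter (ZmUBQ), or the variants RUBY_3Q and RUBY_fs, and are grouped by leaf colour (red, green, or red and green parts of a leaf). They include 8 libraries from always red leaves of dcl1234 plants, which come from only 2 transgenic lines. Several leaves share a transgenic line, mutant alleles are not given in the labels, and nothing says that the inflorescence replicates came from separate plants, so p-values measure the spread between these samples, which may be technical.

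The summed signal of all reads was 1041000 to 1206600 in inflorescence libraries and 310090 to 986260 in leaf libraries, and that of inflorescence reads collapsed by molecular identifier was 53124 to 87242. Of the inflorescence values 5229 of 5229 were whole multiples of 1 step per library (tolerance 0.01 of a step), here taken as 1 read, which was worth 0.354 to 2.34. The third Col-0 library was the shallowest, with 2.34 per read, and it had the highest value of all 4 members among the Col-0 libraries. Construct targets took 63.1% of the collapsed signal in the second Col-0 library and 31.2% to 50.8% in the polv libraries, but at most 1.40% in the other inflorescence libraries. Neither DDM1 nor NRPE1, the largest subunit of polymerase V, is a target of the inflorescence tables (0 of 2), and 0 of 8 flower and leaf marker genes are targets. The genotype and tissue labels could therefore not be checked with those genes. In these bulk samples fewer expressing cells and less RNA per cell cannot be told apart.

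In ddm1 inflorescences all 4 members were more abundant than in Col-0, by between 3.16 and 8.87 on the log2 scale, and the 4 took 10.0% to 12.1% of the whole captured signal against 0.177% to 0.667% in Col-0. Within the signal of the methylated class their share was 38.0% to 44.9% in ddm1 and 50.9% to 54.1% in Col-0. AT2G02205 rested on 3 to 8 reads in each Col-0 library, and the other members on 20 or more. The members are given below in their order along the chromosome.

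AT2G02190 had a collapsed signal of 17.0, 16.0 and 89.1 in Col-0 (20, 27 and 38 reads) and of 282, 228 and 304 in ddm1 (361, 138 and 189 reads). Its ddm1 libraries lay together and did not overlap the Col-0 libraries, among which the third stood apart. The mean was 40.7 ± 41.9 in Col-0 and 272 ± 39.0 in ddm1 (SD, n = 3 and 3), a log2 change of 3.16 (SE 0.82, limma adjusted p = 0.00451).

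The signal of AT2G02200 was 34.8, 17.2 and 105 in Col-0 (41, 29 and 45 reads). In ddm1 it was 1395, 942 and 1569 (1785, 569 and 975 reads). The lowest ddm1 library was far above the highest Col-0 library. The mean was 52.5 ± 46.7 in Col-0 and 1302 ± 324 in ddm1 (SD, n = 3 and 3), a log2 change of 4.95 (SE 0.70, limma adjusted p = 1.12e-05).

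AT2G02205 gave 5, 8 and 3 reads in the Col-0 libraries, a signal of 4.25, 4.74 and 7.03. The ddm1 libraries held 3843, 1788 and 1740 reads, a signal of 3002, 2959 and 2800. The Col-0 signals were close to each other although they rest on few reads, and relative to their mean the ddm1 signals were closer together than those of the other 3 members. The mean was 5.34 ± 1.49 in Col-0 and 2920.3 ± 107 in ddm1 (SD, n = 3 and 3), a log2 change of 8.87 (SE 0.66, limma adjusted p = 9.57e-09).

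For AT2G02210 the signal in Col-0 was 45.9, 66.9 and 211 (54, 113 and 90 reads), and in ddm1 it was 4063, 3389 and 4081 (5201, 2048 and 2536 reads). The groups did not overlap, and again the third Col-0 library was the highest of its group. The mean was 107.9 ± 89.8 in Col-0 and 3844 ± 394 in ddm1 (SD, n = 3 and 3), a log2 change of 5.45 (SE 0.61, limma adjusted p = 8.25e-07).

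**Figure D1:**
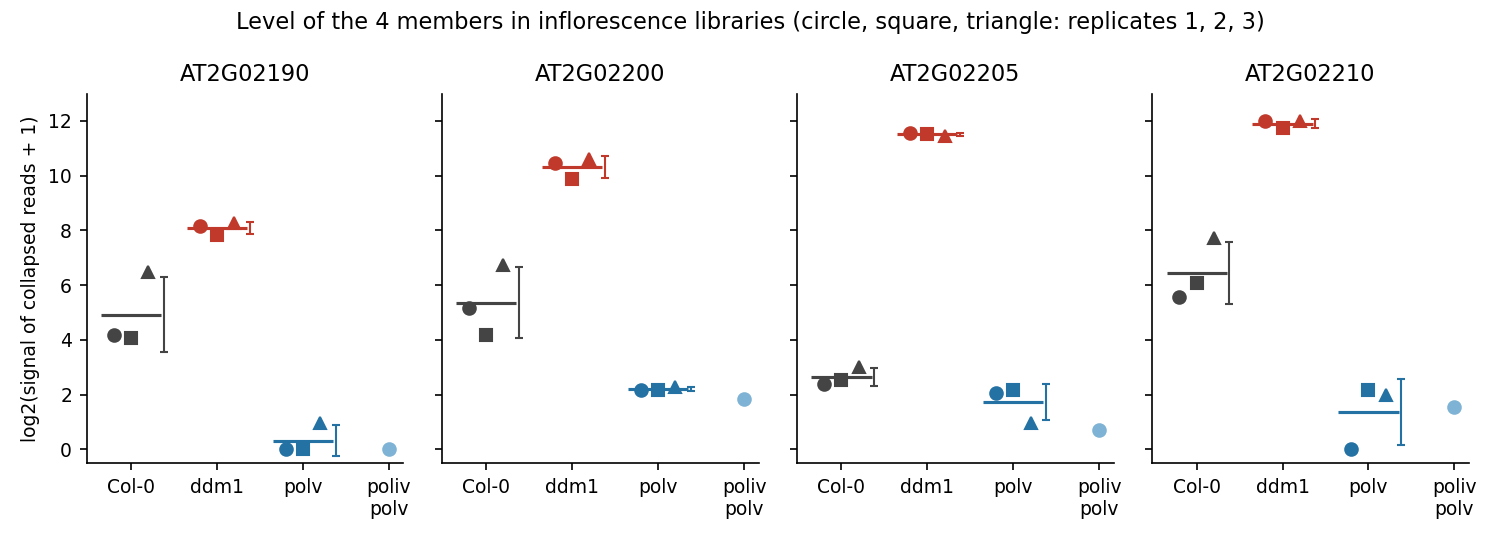
Level of each member in the 10 inflorescence libraries, as log2 of the signal of collapsed reads plus 1; points are libraries, lines are group means and bars SD of the log2 values (n = 3; 1 library of poliv polv). All ddm1 libraries lie above all Col-0 libraries for each member, and for AT2G02205 the Col-0 and polv libraries lie close together.

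These changes are to be read against the background of the panel, in which 17 of 65 targets (26.2%) passed the test in ddm1 against Col-0, all 17 higher and all of the methylated class. Outside the locus 13 of the 15 tested targets of the class were higher, with a median log2 change of 5.57, beside a median of 0.49 over all targets. Relative to the median change of the other classes, the rise of AT2G02190 was 3.03. In order of change within the class of 19, AT2G02205 was number 2, AT2G02210 number 10, AT2G02200 number 12 and AT2G02190 number 17. The extremes of the class outside the locus were AT4TE20070, at 9.11, and AT4TE23185, at -1.79 without passing the test (adjusted p = 0.558 by limma). Of 6 measured genes of the silencing machinery 0 passed in either direction (0 of 6 higher, 0 of 6 lower by limma), from AGO1, which loads small RNAs to cleave target RNA, at 0.82 (adjusted p = 0.44), to DCL4, which makes phased and trans-acting small RNAs, at 0.24 (adjusted p = 0.933).

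The strand of the reads differed between members. In Col-0 the reads of AT2G02200 and AT2G02210 came from both strands, and in ddm1 nearly all of them were sense. AT2G02190 went the opposite way, from mostly sense reads in Col-0 to a mixture in which antisense reads made up about as much as sense reads. Sense here is as the authors' columns name it, and the strand of the pseudogenes is not used.

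For AT2G02200 antisense reads made up 36.6%, 37.9% and 44.4% of the reads in Col-0 and 3.87%, 9.14% and 4.51% in ddm1. For AT2G02210 the antisense share was 37.0%, 30.1% and 42.2% in Col-0 and 1.96%, 7.03% and 3.00% in ddm1. Neither member had overlapping groups, and in both the second ddm1 library had the highest antisense share of its group. For AT2G02205 the share in ddm1 was 1.12% ± 0.696 (SD, n = 3), and 1 of 16 reads in Col-0 was antisense. For AT2G02190 it was 5%, 14.8% and 23.7% in Col-0, from 1, 4 and 9 antisense reads, and 64.8%, 55.8% and 45.5% in ddm1. Here the groups were separate in the other direction, with every ddm1 library above every Col-0 library.

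The lower antisense shares came with antisense signals that were not lower. The antisense signal of AT2G02200 was 12.7, 6.52 and 46.9 in Col-0 and 53.9, 86.0 and 70.8 in ddm1. The antisense signal of AT2G02210 was 17.0, 20.1 and 89.1 in Col-0 and 79.7, 238 and 122 in ddm1, while its sense signal went from 28.9, 46.8 and 122 to 3984, 3151 and 3958. The sense signals were separate by a wide margin and the antisense signals of AT2G02210 overlapped. The change of sense against antisense signal was tested on the log2 ratio of both: 15 of 65 targets (23.1%) passed in ddm1 against Col-0, 10 of them toward sense and 5 toward antisense. The log2 ratio changed by 3.53 for AT2G02200 (SE 0.53, limma adjusted p = 0.00158), by 4.37 for AT2G02205 (SE 0.74, limma adjusted p = 0.00223) and by 4.00 for AT2G02210 (SE 0.56, limma adjusted p = 0.00133). For AT2G02205 that value depends on the pseudocount, since 2 of the 3 Col-0 libraries had no antisense read. The ratio of AT2G02190 fell by 2.64 (SE 0.71, limma adjusted p = 0.0229), but without any 1 of 5 of the 6 libraries the adjusted p by limma was 0.0528 to 0.102. The exception was the third Col-0 library.

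**Figure D2:**
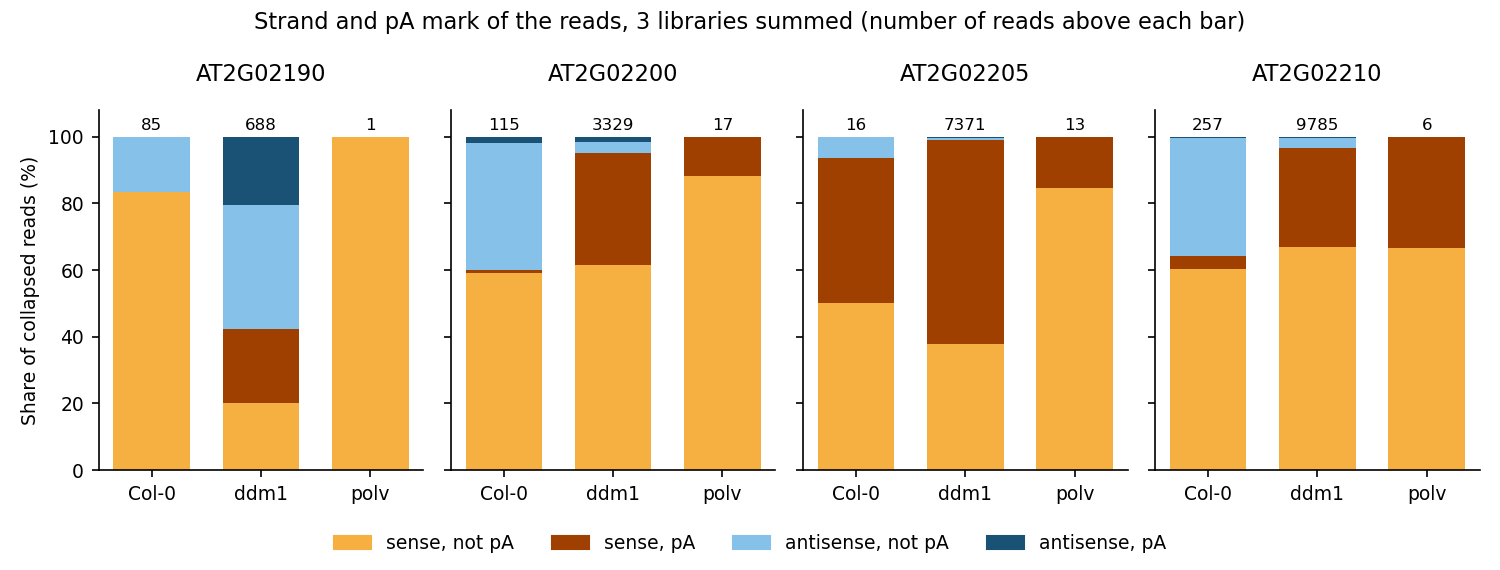
Share of the collapsed reads of each member by strand and pA mark in Col-0, ddm1 and polv, with the reads of 3 libraries summed (number of reads above each bar). In ddm1 antisense reads of AT2G02190 fill 37.2% (not pA) and 20.5% (pA) of the bar, and at most 3.36% and 1.59% for the other members, and polv bars rest on 1 to 17 reads.

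Reads marked pA were rare in Col-0 and common in ddm1 for 3 members. AT2G02190 had 0 of 20, 0 of 27 and 0 of 38 reads marked pA in the Col-0 libraries, which allows shares of up to 15%, 11.1% and 7.89%. In ddm1 the share was 49.6%, 32.6% and 37.0%. AT2G02200 had 1 pA read in each Col-0 library, which is 3 of 115 in all, and 41.0%, 29.9% and 27.8% in ddm1. AT2G02210 had 0%, 3.54% and 7.78% in Col-0 and 34.6%, 28.5% and 22.6% in ddm1. In these 3 members each ddm1 library lay above each Col-0 library. How many other targets were as separate in level, strand, pA or full-length share is not given here. AT2G02205 differed, with 1 of 5, 6 of 8 and 0 of 3 reads marked pA in Col-0 and 61.9%, 61.5% and 60.6% in ddm1. Its Col-0 libraries spread from none to most of the reads and so overlapped the ddm1 libraries. Intervals and limits from counts cover counting error only, since collapsed reads still derive from amplified cDNA.

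Of all 65 tested targets 11 (16.9%) passed the test of the pA ratio in ddm1 against Col-0, all toward pA and all of the methylated class, 8 of them outside the locus. The log2 ratio of pA to other signal rose by 4.31 for AT2G02190 (SE 0.80), by 3.18 for AT2G02200 (SE 0.59) and by 3.10 for AT2G02210 (SE 0.54), each at a limma adjusted p of 0.00244. As AT2G02190 had no pA read in Col-0, its mean Col-0 ratio of -4.92 is its Col-0 level with the sign reversed. The size of its change therefore depends on the pseudocount and on that level. For AT2G02205 the change of 1.73 did not pass (SE 0.89, limma adjusted p = 0.246), with a 95% interval of -0.22 to 3.68. With a pseudocount of 10 in place of 1, the 3 calls were lost (limma adjusted p = 0.217, 0.288 and 0.064). In ddm1 both strands of AT2G02190 carried the mark: 51.6% ± 6.57 of its sense reads and 29.8% ± 13.0 of its antisense reads were pA (SD, n = 3).

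Full-length reads split the members in another way. AT2G02205 was read in full length in both genotypes: 2 of 5, 8 of 8 and 3 of 3 reads in Col-0, and 94.98%, 89.3% and 92.6% in ddm1. The Col-0 libraries of this member lay both below and above its ddm1 libraries. AT2G02190 had 1 full-length read of 85 in Col-0 and 42.4%, 26.8% and 19.0% in ddm1. AT2G02200 had 0 of 115 and 22.2%, 17.9% and 14.7%. AT2G02210 had 3 of 257, all in the second library and all pA, and 20.8%, 9.57% and 9.82%. The latter 3 members thus had an observed full-length share under 6% in each Col-0 library and above 9% in each ddm1 library. Counts of 0 in Col-0 still allow shares of up to 11.1% (AT2G02190, second library).

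On the log2 ratio of full-length to all collapsed signal 0 of 54 targets (0%) passed by limma in ddm1 against Col-0, with 7 at an unadjusted p below 0.05. The changes were 2.79 for AT2G02190 (limma adjusted p = 0.25), 2.89 for AT2G02200 (0.132), 0.20 for AT2G02205 (0.867) and 2.97 for AT2G02210 (0.214). As AT2G02200 had no full-length read in Col-0, its mean Col-0 ratio of -5.36 is its Col-0 level with the sign reversed. After centring on the median of the other classes the members other than AT2G02205 passed (limma adjusted p = 0.000512, 0.000269 and 0.000257). In ddm1 the full-length reads were pA more often than not: 69.9% ± 4.345 for AT2G02190, 62.7% ± 9.75 for AT2G02200, 62.1% ± 0.617 for AT2G02205 and 56.9% ± 6.22 for AT2G02210 (SD, n = 3). By strand, 34.1% ± 12.27 of the antisense reads of AT2G02190 were full length, against 0.885% ± 0.994 of those of AT2G02210 (SD, n = 3). The 4 members are not compared in level per length, and whether 1 long read can count for more than 1 of them is not given in the sources used here.

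**Figure D3:**
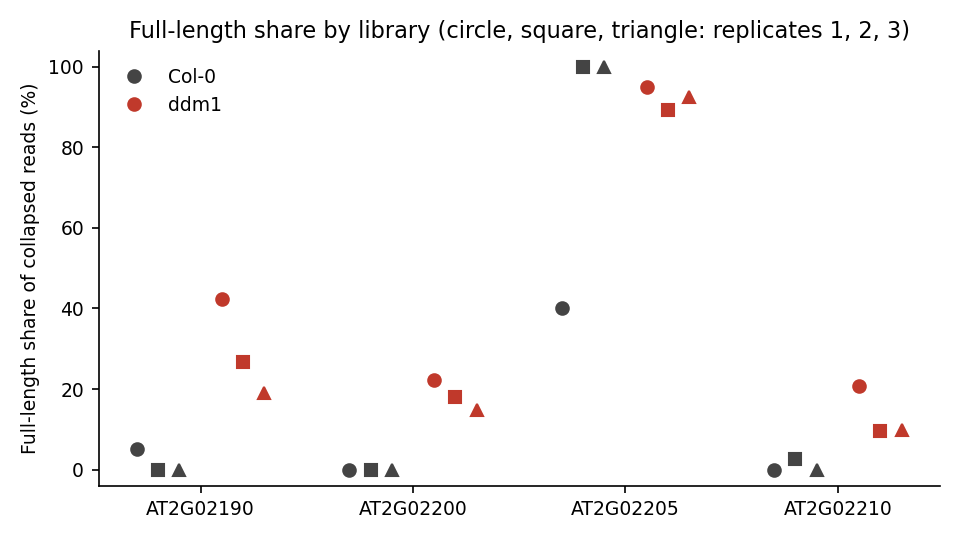
Share of the collapsed reads of each member that were marked full length, in percent, by library (Col-0 grey, ddm1 red). The Col-0 libraries of AT2G02190, AT2G02200 and AT2G02210 lie at 0% to 5% and their ddm1 libraries at 9.57% to 42.4%, while AT2G02205 lies at 89.3% to 94.98% in ddm1.

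In polv inflorescences 3 of the 4 members were lower than in Col-0, and AT2G02205, which was already at a few reads in Col-0, did not pass the test. Over the 4 members the 3 polv libraries held 37 collapsed reads, of which 37 were sense and 0 antisense, which allows an antisense share of up to 8.11%, and 6 were pA. The polv and ddm1 comparisons share their 3 Col-0 libraries.

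The signal of AT2G02190 was 0, 0 and 0.976 in polv, from 1 read in all. With 85 reads in Col-0, the ratio of pooled reads per collapsed read was 122, with a 95% counting interval of 21.3 to 4861. Its log2 change was -4.59 (SE 0.83, limma adjusted p = 0.000168), a value set in part by the pseudocount (-1.995 with a pseudocount of 10 and -8.74 on all reads).

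AT2G02200 had 10, 3 and 4 reads in polv, a signal of 3.54, 3.48 and 3.90, so its polv libraries lay close together and below all Col-0 libraries. It fell by 3.15 on the log2 scale (SE 0.77, limma adjusted p = 0.00287), or by 1.93 with a pseudocount of 10. The pooled ratio of Col-0 to polv was 9.68 (95% counting interval 5.79 to 17.2).

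AT2G02210 had 0, 3 and 3 reads in polv, a signal of 0, 3.48 and 2.93. All 3 polv libraries lay below the lowest Col-0 library, at 45.9. It fell by 5.08 (SE 0.81, limma adjusted p = 6.33e-05), or by 3.03 with a pseudocount of 10. The pooled ratio was 61.3 (95% counting interval 27.8 to 169).

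AT2G02205 had 9, 3 and 1 reads in polv, a signal of 3.19, 3.48 and 0.976. These values lay below the 3 Col-0 libraries without overlap, but within counting error of them: the pooled ratio was 1.76 with a 95% counting interval of 0.794 to 3.98. The log2 change was -0.90 (SE 0.78, limma adjusted p = 0.657), with a 95% interval of -2.53 to 0.72. Its Col-0 mean on this scale was 2.64, so even a complete loss could not give a fall of the size of the other members. Of its 13 polv reads 4 were full length and 2 were pA.

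In the single poliv polv library AT2G02190 had 0 reads, which allows a signal of up to 1.95. AT2G02200 had 4 reads there, AT2G02205 had 1 and AT2G02210 had 3, a signal of 2.60, 0.650 and 1.95. These values lie within the range of the polv libraries for AT2G02190 and AT2G02210 and below it for AT2G02200 and AT2G02205. As there is 1 library, nothing was tested.

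Against Col-0, 16 of 59 targets (27.1%) passed in polv, 3 higher and 13 lower. Centred on the median of the other classes they were 6 higher and 10 lower, and the median change of all targets was -0.48. So centred, AT2G02190 changed by -4.32, AT2G02200 by -2.87 and AT2G02210 by -4.80, and the 3 calls held. The 3 higher targets were construct elements, and the summed signal of protein-coding targets was 17528 to 26100 in polv and 37515, 14464 and 38191 in Col-0. Without the second Col-0 library, which had the high construct share, 43 targets passed, and AT2G02190, AT2G02200 and AT2G02210 changed by -5.004, -3.74 and -5.26. The part of construct reads in the falls was not tested beyond this.

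In the methylated class outside the locus 8 of 10 tested targets were lower in polv, with a median of -3.29. Only 6 targets of the class outside the locus had any signal in polv. A tested target without it entered through Col-0 alone and could only fall, so the direction is no result for those targets. The change of AT2G02210 was the lowest of the class of 14, with AT2G02190 next to it, AT2G02200 at number 7 from the top and AT2G02205 at number 2. Outside the locus the range was from AT4G07967, at -4.32, to AT4TE20095, at -0.89 (limma adjusted p = 0.657). Of the silencing genes 0 of 6 passed in either direction by limma, from DCL4 at -0.11 (adjusted p = 0.872) to AGO6, an Argonaute of the RNA-directed DNA methylation pathway, at -1.03 (adjusted p = 0.459).

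The ratios of strand, pA and full-length signal move toward 0 when a member falls to a few reads, because the pseudocount then outweighs the signal. For that reason the polv values of these ratios are given without a reading of what the remaining RNA is made of. For the strand ratio 4 of 59 targets (6.78%) passed in polv against Col-0 and 0 of 4 members. For the pA ratio 17 of 59 (28.8%) passed, 16 of them toward pA (14 of 17 after centring), with AT2G02190, AT2G02200 and AT2G02210 among them (limma adjusted p = 0.00506, 0.0327 and 0.00506). For the full-length ratio 9 of 49 (18.4%) passed, among them the same 3 members (limma adjusted p = 0.0333, 0.0333 and 0.0304). Yet AT2G02190 had 0 pA reads in both Col-0 and polv, and AT2G02200 had 0 full-length reads in both. Their changes of 4.59 (pA ratio) and 3.15 (full-length ratio) are therefore their falls in level with the sign reversed.

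Set against polv, the 4 members were higher in ddm1 by 7.75 (AT2G02190, SE 0.43), 8.10 (AT2G02200, SE 0.30), 9.77 (AT2G02205, SE 0.37) and 10.52 (AT2G02210, SE 0.58), each with a limma adjusted p of at most 2.52e-06. The sizes are set in part by the pseudocount, as the 3 polv libraries together held 1, 17, 13 and 6 reads of the members in this order. In that comparison 35 of 65 targets (53.8%) passed, 29 of them higher in ddm1, and the median of all targets was 0.95. Outside the locus 14 of 14 tested targets of the class were higher. As only 6 targets of the class outside the locus had any polv signal, those without it could only be higher in ddm1. Of the silencing genes 3 of 6 were higher and 0 lower, among them AGO6 at 1.48 (limma adjusted p = 0.00728).

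Over the 10 inflorescence libraries the targets whose level was most like that of AT2G02210 were AT4G07967 (Pearson r = 0.988), AT4G07970 (0.982) and AT2G02200 (0.982), and the least like was the 35S promoter (-0.608). The libraries share 4 genotype groups and the points are not independent, so this is a description of which targets were high in the same libraries.

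In leaves 3 of the 4 members were found in most libraries with hardly any pA signal, and AT2G02205 was found in few. The leaf tables used are those of all reads, not collapsed, so their levels are not on the scale of the collapsed reads above: in Col-0 and ddm1 inflorescences 1 collapsed read stood for 11.9 to 18.7 reads (means per member and genotype). Of the 112 leaf libraries 92 have columns for both strands and 20 for sense only.

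Among the 92, AT2G02210 was above 0 in 87 libraries, with a median signal of 172 and a highest of 2030. AT2G02200 was above 0 in 75 (median 71.3, highest 1363) and AT2G02190 in 67 (median 36.4, highest 686). AT2G02205 was above 0 in 22, with a median of 0 and a highest of 491. All 4 members were above 0 in 14 libraries, 3 in 47, 2 in 25, 1 in 4 and 0 in 2. For comparison of ranges, the signal of all reads in Col-0 inflorescences was 269 to 1873 for AT2G02190, 243 to 1278 for AT2G02200, 29.6 to 138 for AT2G02205 and 491 to 3188 for AT2G02210. Tissue and library sets differ together, so the difference in level was not tested.

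**Figure D4:**
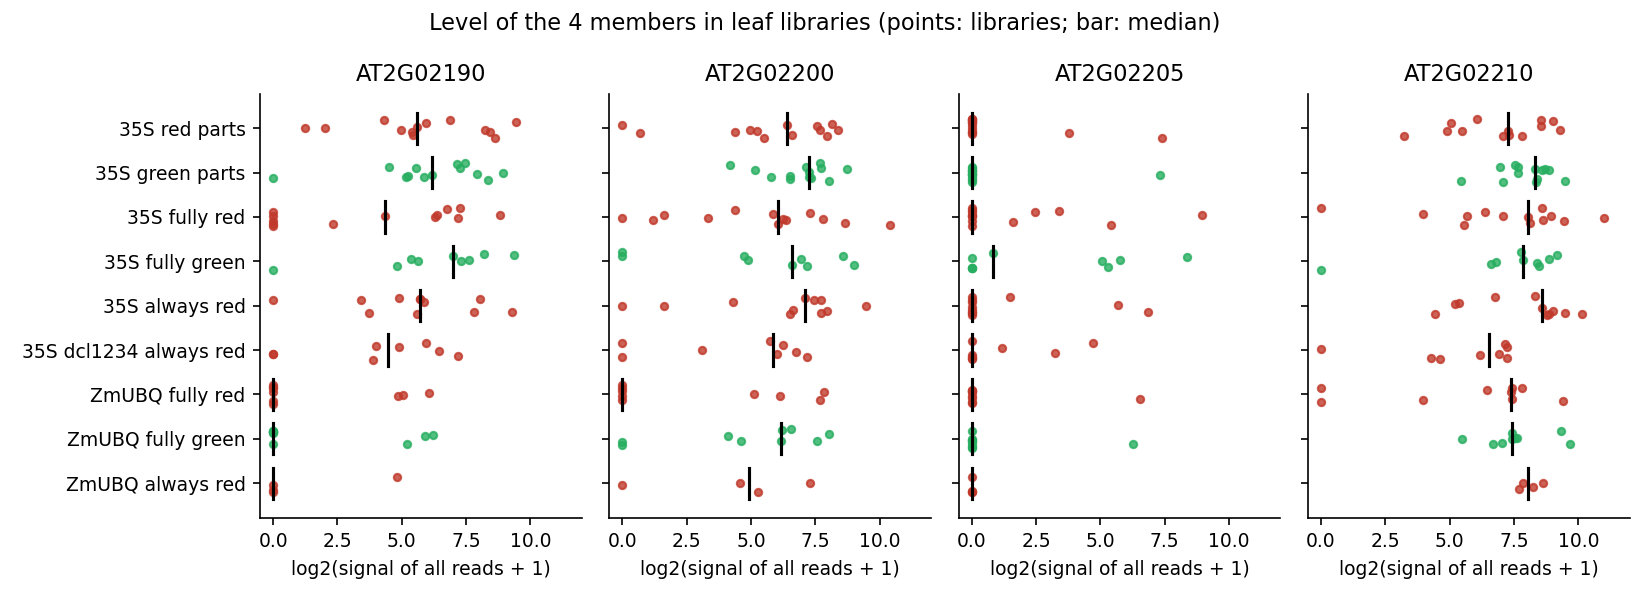
Level of each member in leaf libraries with columns for both strands, as log2 of the signal of all reads plus 1, for the 9 groups of 4 or more libraries (points are libraries, bars are medians, red and green for leaf colour). AT2G02210 is above 0 in 87 of the 92 libraries and AT2G02205 in 22.

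For AT2G02190, AT2G02200 and AT2G02210 the summed leaf signal was nearly all without pA and came from both strands. Antisense reads made up 44.7% of the summed signal of AT2G02210, 37.9% of that of AT2G02200, 30.8% of that of AT2G02190 and 16.4% of that of AT2G02205. The pA share of the summed signal was 1.21%, 0.961%, 0.036% and 37.7% in the same order. No pA signal at all was found in 68 of 87 libraries with AT2G02210, 69 of 75 with AT2G02200, 64 of 67 with AT2G02190 and 13 of 22 with AT2G02205. AT2G02205 thus had the highest pA share and the fewest libraries. In single libraries the strands were uneven: AT2G02210 had mostly antisense signal in 37 libraries and antisense signal alone in 6. As leaf reads are not collapsed, few molecules may lie behind the signal of a library, and the unevenness was not tested.

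Full-length collapsed reads in leaves came almost entirely from AT2G02205. They were found in 20 libraries for AT2G02205, in 1 each for AT2G02200 and AT2G02210 and in 0 for AT2G02190, of 92 tables that list the locus. Of the 20 libraries 9 had pA reads and 6 had antisense reads among them. The highest signals were 16.6 and 13.5, from 12 and 6 reads.

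The order of the leaf groups by median, given for groups of 4 or more libraries with columns for both strands, differed between members. For AT2G02210 the always red 35S leaves were highest (lowest 20.8, median 380, highest 1125, n = 11), then 35S green parts (43.0, 317 and 722, n = 13) and always red ZmUBQ leaves (204, 267 and 397, n = 4). The groups 35S fully red (0, 260 and 2030, n = 13), 35S fully green (0, 230 and 580, n = 9), ZmUBQ fully green (44.0, 172 and 809, n = 9), ZmUBQ fully red (0, 167 and 682, n = 9) and 35S red parts (8.27, 155 and 628, n = 13) followed. The dcl1234 leaves were lowest of these groups (0, 95.1 and 149, n = 8). The ranges of neighbouring groups overlap throughout, and neighbours in this order do not differ beyond their spread.

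For AT2G02200 the medians ran from 153 in 35S green parts (17.2 to 427) and 137 in 35S always red leaves (0 to 714) to 57.6 in dcl1234 leaves (0 to 143), 30.3 in always red ZmUBQ leaves (0 to 154) and 0 in fully red ZmUBQ leaves (0 to 227). For AT2G02190 they ran from 127 in 35S fully green leaves (0 to 664) to 0 in the 3 ZmUBQ groups, in which 7 of 22 libraries were above 0. AT2G02205 was above 0 in 5 of 9 libraries of 35S fully green leaves and in 5 of 13 of 35S fully red leaves. Again the ranges overlapped between groups.

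In the 20 libraries with sense columns only, AT2G02190 was above 0 in 11, AT2G02200 in 10, AT2G02205 in 4 and AT2G02210 in 14. The RUBY_3Q fully red and fully green leaves had 0 in each of their 4 libraries for AT2G02205 and AT2G02210. The 2 libraries of always green 35S leaves had AT2G02210 at 38.6 and 38.8 and AT2G02200 and AT2G02205 at 0 in both. The library labelled green 35S leaf but titled Col-0 had AT2G02210 at 73.5, AT2G02200 at 39.3, AT2G02190 at 5.83 and AT2G02205 at 0.39.

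Loss of 4 Dicer-like enzymes was compared in always red 35S leaves. AT2G02210 was lower in dcl1234 (0, 95.1 and 149 as lowest, median and highest of 8) than in Col-0 (20.8, 380 and 1125 of 11), with overlapping ranges. The log2 change was -2.27 (SE 0.93, limma adjusted p = 0.0463), with a 95% interval of -4.20 to -0.35. AT2G02190 and AT2G02200 had changes of -1.42 (SE 1.13, limma adjusted p = 0.282) and -1.67 (SE 1.22, limma adjusted p = 0.253) and did not pass. AT2G02205 was above 0 in too few libraries to be tested. In this comparison 29 of 60 targets (48.3%) passed, 18 higher and 11 lower (12 and 13 after centring), with a median of 0.30 over all targets, so a call was common here.

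The call for AT2G02210 was lost with a pseudocount of 0.5 (limma adjusted p = 0.0501), without the filter on low values (0.0605) and on means per line (2 dcl1234 lines, change -2.21, adjusted p = 0.22). All 8 dcl1234 libraries fall in a set of running numbers of their own, so library set and genotype cannot be told apart. Within the class of 9 tested targets the changes outside the locus went from 5.40 for AT4TE23200 to -3.02 for AT4G07967 (limma adjusted p = 9.87e-06 and 0.0191). Of 8 measured silencing genes 1 was higher, AGO4 at 0.61 (limma adjusted p = 0.0194), which binds small RNAs in RNA-directed DNA methylation, and 0 were lower.

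Red pigment reports RUBY activity and green leaves lack it, and no tested member passed the test between leaf colours. Between green and red parts of 35S leaves (n = 13 and 13) the log2 changes were 0.24 for AT2G02190 (95% interval -1.61 to 2.08), 1.22 for AT2G02200 (-0.46 to 2.90) and 1.03 for AT2G02210 (-0.27 to 2.34), with limma adjusted p of 0.907, 0.655 and 0.655. In that comparison 1 of 57 targets (1.75%) passed. Between fully green and fully red 35S leaves (n = 9 and 13) they were 2.3 for AT2G02190 (95% interval -0.23 to 4.93), 0.01 for AT2G02200 (-2.52 to 2.54), 1.14 for AT2G02205 (-1.55 to 3.82) and 0.07 for AT2G02210 (-2.12 to 2.26), with limma adjusted p of 0.657 to 0.996, and 1 of 60 targets (1.67%) passed. Between fully green and fully red ZmUBQ leaves (n = 9 and 9) AT2G02200 changed by 1.82 (-1.25 to 4.90) and AT2G02210 by 2.03 (-0.43 to 4.49), with limma adjusted p of 0.478 and 0.308, and 1 of 51 targets (1.96%) passed. Colours were also compared with the line and replicate number as a block, since libraries of both colours with the same number share a transgenic line. So paired, 8 of 60 targets passed in fully green against fully red 35S leaves (7 higher, 1 lower), and no member among them: the changes were 2.18 for AT2G02190, -0.28 for AT2G02200, 0.99 for AT2G02205 and 0.75 for AT2G02210 (limma adjusted p = 0.294, 0.831, 0.644 and 0.608). The intervals without the block are wide, and changes of several log2 units in either direction lie within some of them. The difference of the colour effect between the promoters was also tested, and 0 of 63 targets passed by limma, with an adjusted p of 0.934 for the members. That fit held no block. For AT2G02190 and AT2G02205 it cannot decide, since they were above 0 in only 3 of 9 and 1 of 9 libraries of each ZmUBQ colour.

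**Figure D5:**
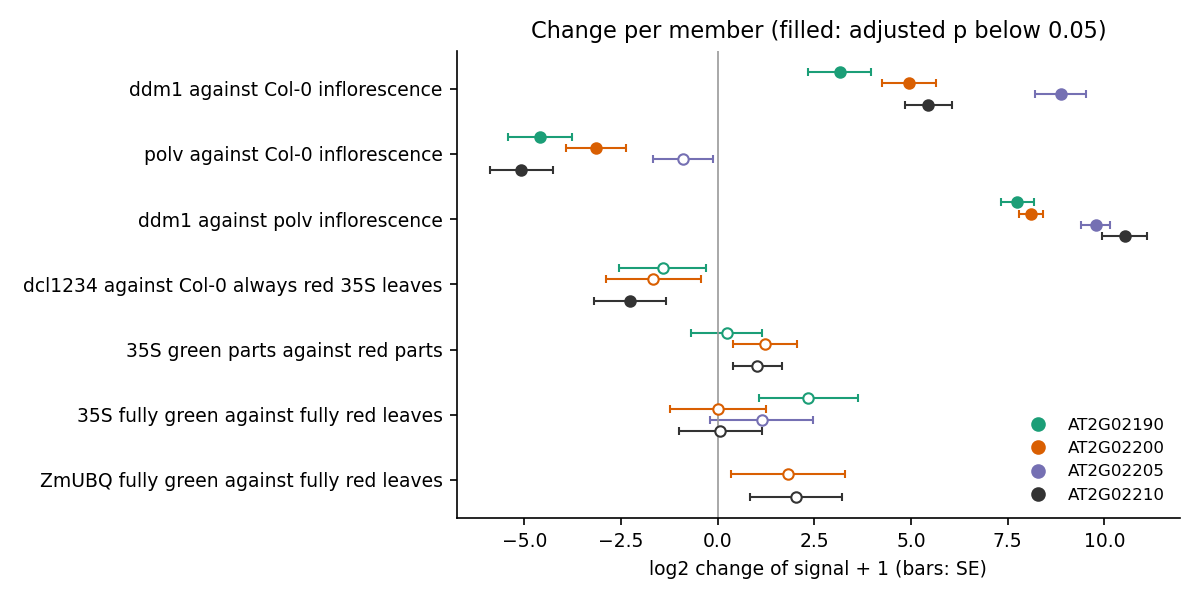
Log2 change of each tested member in 7 comparisons (x axis, signal plus 1; bars are SE; filled points have an adjusted p below 0.05 by limma). The inflorescence changes run from -5.08 to 10.52, and in leaves the single filled point is AT2G02210 in dcl1234, at -2.27.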

How the data were processed

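Per the labels' protocols, total RNA was extracted with TRIzol, ligated to a 3′ adapter, copied by template-switching reverse transcription, barcoded, pooled, captured with biotinylated probes and sequenced on a nanopore device. The submitters' processing notes name cutadapt, without a version, and the build TAIR10. The aligner, the counter and the factor of normalisation are not given in the sources used here. The authors deposited normalised values per target (unit signal), split by strand and by pA mark per the file headers. The tables used were: reads collapsed by molecular identifier and full-length collapsed reads (inflorescence), and all reads (leaf, with full-length collapsed reads as values).

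Groups follow the labels. The test was limma (version 3.58.1, R 4.3.3) after adding 1 to the signal and taking log2, fitted on the 2 groups compared alone, with variances moderated by empirical Bayes along the mean level. Targets entered if the number of libraries above 0, counted over both groups together, was not below the size of the smaller group. A target could thus enter through the group where it was high, which then fixed the direction of its change. P-values were adjusted over all targets of the fit by the method of Benjamini and Hochberg, and 0.05 was the threshold of a call. All 4 members passed this filter in the inflorescence comparisons and in fully green against fully red 35S leaves, 3 in the dcl1234 and leaf part comparisons and 2 in ZmUBQ leaves. Ratios of strand, pA and full-length signal were differences of such log2 values. Shares and counting intervals (exact Clopper-Pearson, 95%, and 3 reads for a count of 0) were made in Python 3.11.15 with scipy 1.17.1. The test was checked on simulated data. No 2 of the 122 libraries had identical tables.

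Alternatives were pseudocounts of 0.5 and 10, no filter, centring, other tables, means per line, leaving out each inflorescence library and the replicate number as a block. In leaves the titles give the same line and number to libraries of both colours, whose deviations correlated at -0.26 to 0.55 over 13 pairs of leaf parts, at -0.40 to 0.50 over 9 pairs of fully coloured 35S leaves and at -0.38 to 0.25 over 9 ZmUBQ pairs. The members, the silencing list and the tests were chosen with earlier results of these data known. The text names the members, the 3 targets most like AT2G02210 and the least like, and the extremes of the methylated class and of the silencing list. Gene names and order come from RefSeq's table of assembly TAIR10.1, in which 4 of 4 members were found. As that build is not the authors', no coordinates are given.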

Additional observations from a re-analysis of the deposited data

Results flagged for a closer look

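In 23 sets of 1 member in 1 leaf group of 4 to 10 libraries, the highest library stood far from the next in 10. Chance flags about 1 in 20 such sets, and many values at 0 make a gap more likely. For AT2G02190 these were 664 in 35S fully green leaves (next 294), 27.3 in always red ZmUBQ leaves (others 0) and 65.5 in fully red ZmUBQ leaves (next 32.1). For AT2G02205 they were 25.1 in dcl1234 leaves (next 8.54), 328 in 35S fully green leaves (next 53.7), 55.7 in RUBY_fs leaves (next 1.57), 76.6 in fully green ZmUBQ leaves and 92.5 in fully red ZmUBQ leaves (others 0 in both). For AT2G02210 they were 216 in RUBY_fs leaves (next 71.6) and 682 in fully red ZmUBQ leaves (next 227).

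Full-length collapsed reads of AT2G02205 in leaves, which enter no comparison, were above the signal of 3 reads in 6 libraries: 8.59 and 8.55 in 2 libraries of 35S fully green leaves (limits 6.45 and 3.66), 13.5 in 35S red parts (6.75), 16.6 in 35S green parts (4.14), 8.02 in 35S fully red leaves (2.01) and 5.02 in dcl1234 leaves (3.78). The single fully green 35S library of the T1 generation, also in no comparison, had a sense signal of AT2G02200 of 266, above the highest sense signal of 263 in 35S always red leaves, but below the highest in 35S fully green leaves (343) and in 35S fully red leaves (1361).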

How the results depend on the processing

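Over 493 values of members under alternative settings, 436 kept direction and side of the threshold, 36 lost the call, 6 gained it and 15 changed direction. The 4 rises in ddm1 and the 3 falls in polv kept their calls under each alternative that could be run; on full-length tables AT2G02205 was the only member tested in polv. The strand, pA and full-length shares in polv rest on 37 reads of the members.

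Whether replicate numbers pair the inflorescence libraries is unclear. The correlation of deviations with the same number was -0.06 to 0.68 for ddm1 and Col-0 and -0.52 to 0.31 for polv and Col-0. The same number gave the best match in 2 of 3 pairs of ddm1 and Col-0 and in 1 of 3 of polv and Col-0. Leaf libraries with the same number share a line. With the number as a replicate block, 17 targets passed for the pA ratio in ddm1, 3 for the full-length ratio in polv and 8 for fully green against fully red 35S leaves, where the numbering set as a term, added after the data were seen, gave 7; for levels the block changed no call of a member. With a pseudocount of 10, counts became 4 (pA ratio, ddm1), 2 (full-length ratio, ddm1), 7 (strand ratio, polv) and 2 (full-length ratio, polv), and with 0.5 they became 2 (full-length ratio, ddm1) and 1 (strand ratio, polv). Centring gave 8 (full-length ratio, ddm1), 14 (full-length ratio, polv) and 2 (fully green against fully red 35S leaves), means per line gave 6 (dcl1234) and 2 (ZmUBQ), and full-length tables gave 2 (polv levels, fewer targets tested). Leaving out 1 library gave 13 to 43 for polv levels, 5 to 12 for the pA ratio in ddm1, 0 to 3 for the full-length ratio in ddm1, and 0 to 4, 8 to 18 and 0 to 12 for the strand, pA and full-length ratios in polv.

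Changes of direction, all of values that had not passed, were these. With a pseudocount of 10 the full-length ratio in ddm1 was -0.042 for AT2G02200 and -0.021 for AT2G02205 (without 1 library -0.12, without Col-0 replicate 1, to 0.36), and the strand ratio of AT2G02210 in polv was -0.35. For AT2G02205 in polv the pA ratio was -0.14 after centring, -0.71 without Col-0 replicate 3, -0.46 without polv replicate 2 and 1.32 at most without 1 library, and the full-length ratio was 0.32 without polv replicate 1. In 35S parts AT2G02190 was at -0.11 after centring. In fully green against fully red 35S leaves AT2G02200 was at -0.087 (pseudocount 0.5), -0.43 (centred), -0.28 (block) and -0.80 (means per line), and AT2G02210 at -0.37 (centred) and -0.015 (means per line). The cause was not tested.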

Other observations

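One library of fully red 35S leaves stood out at the locus, chosen after its values were seen. Its signal of all reads was 2030 for AT2G02210, 1363 for AT2G02200 and 491 for AT2G02205, the highest of all leaf libraries for each, while AT2G02190 was at 0. Antisense reads made up 5.10%, 0.147% and 0.546% of these signals, against 44.7%, 37.9% and 16.4% of the signal summed over leaves. Of the signal of AT2G02205 46.3% was pA, but of that of AT2G02210 0.329% and of that of AT2G02200 0%. In 1 fully green and 1 fully red ZmUBQ library, by contrast, 100% of the AT2G02205 signal was antisense. These signals rest on about 42 and 34 reads, with the smallest value of a library taken as 1 read. Leaf reads here are not collapsed, so few molecules may lie behind such shares. The fully red 35S library had 12 full-length collapsed reads of AT2G02205.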
